A study of Mus musculus with 23 samples.

Results

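The hippocampus of mice that both carried the P301S tau transgene and had been exposed to hypoxia was compared with that of wild-type (WT) mice kept in normal air, gene by gene across the transcriptome. Membership follows each library's labels for genotype and condition, which place 12 of the 23 RNA-seq libraries of the series in this comparison. They are 6 P301S hypoxia and 6 WT normoxia libraries. The other 11 libraries, 5 from P301S mice in normoxia and 6 from WT mice in hypoxia, supplied the 2 single effects whose sum was set against the combined difference. All mice had a mixed background of C57Bl6 and Balbc, and RNA came from whole frozen hippocampus with a RIN (RNA integrity number) above 9. The series title describes the exposure as chronic and intermittent. Not given in the sources used here are the mice's age and sex, the hypoxia regimen, the time of collection, the promoter of the transgene and whether each library came from its own animal. P-values therefore measure the spread between libraries.

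P301S is a mutation of tau, the microtubule-associated protein of axons, that causes a familial frontotemporal dementia in people, and mice that express it form tau tangles and lose neurons. Intermittent hypoxia, the repeated fall and return of oxygen of sleep apnoea, acts through oxygen-sensing HIF transcription factors and oxidative stress. The hippocampus holds the dentate granule and pyramidal neurons on which memory depends, and its activity-regulated genes, such as Fos and Arc, follow recent neuronal firing. The study asked what the tau mutation and hypoxia do together.

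Each value below is a count of read pairs over the whole gene body, given as CPM, that is, scaled to a common library size. Libraries held 23.8 to 25.8 M counts in P301S hypoxia and 22.8 to 25.8 M in WT normoxia. Markers of the choroid plexus, the fluid-secreting tissue of the ventricle beside the hippocampus, split the libraries. Their summed level ran from 287 to 3924 CPM in P301S hypoxia and from 264 to 5481 CPM in WT normoxia. P301S hypoxia replicates 1 and 4, WT normoxia replicate 4 and WT hypoxia replicates 1, 4 and 5 were the 6 libraries of the series poor in these markers. Counts of genes are given below also without those 6, a fit with fewer libraries in each of these groups. Myelin markers were low in P301S hypoxia replicate 2 and WT normoxia replicate 4. In titles, 5 of the 6 WT normoxia libraries carry the number 66, replicate 6 carries 37, and the 6 P301S hypoxia libraries carry 6 different numbers. Whatever that number stands for cannot be told apart from the groups.

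Levels of the mouse tau gene and of the prion locus were set beside the genotype labels, since the human transgene itself was not analysed here. Mapt, which encodes mouse tau and lies on chromosome 11 (104231390 to 104332090, build GRCm38), ran from 611 to 758 CPM with a median of 671 CPM in P301S hypoxia and from 648 to 740 CPM with a median of 670 CPM in WT normoxia. The 2 groups overlapped over most of their range. Lamr1-ps1, a processed pseudogene beside the prion gene Prnp (chromosome 2, 131904086 to 131904959), had 438 counts over the 6 P301S hypoxia libraries and 0 over the 6 WT normoxia libraries. Set against a floor of 3 counts over the group, it was at least 143-fold higher in P301S hypoxia. Prn, which shares 73.1% of its span with Prnp and other genes, had 2.56 to 5.79 CPM in P301S hypoxia and 0.0413 to 0.315 CPM in WT normoxia. Both separated the groups with no overlap, and Prnp itself had 0 counts in these 12 libraries. Lamr1-ps1 was named for its difference in this comparison, so its separation here is no independent check of the labels. In the other groups Lamr1-ps1 had 365 counts over the P301S normoxia libraries and 0 over the WT hypoxia libraries. What links this locus to the genotype was not tested.

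Of 17788 genes tested, 1065 differed between P301S hypoxia and WT normoxia, 630 higher and 435 lower in P301S hypoxia. They make up 5.99% of the genes tested, with 3.54% called higher and 2.45% called lower. A gene was called where the Benjamini-Hochberg adjusted p of edgeR's quasi-likelihood test, fitted to all 23 libraries, was below 0.05. Most differences were small. The median absolute log2 difference of the called genes was 0.28, 163 exceeded 0.5 and 32 exceeded 1. The lowest and highest values of the groups did not overlap in 402 of the called genes and in 529 genes, or 2.97%, of all those tested. Among the genes called lower were 58 pseudogenes of any kind, against 5 called higher, of 886 tested. The count fell to 343 without the 6 libraries poor in choroid plexus markers and to 263 once the trends of log counts on gene span and GC were taken out library by library (below, the length and GC trend). It was 527, 638, 440 and 455 without WT normoxia replicates 2, 3, 5 and 6 and 546, 396, 457 and 554 without P301S hypoxia replicates 2, 3, 4 and 5.

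Xdh, Hif3a and Rtl3 were among the largest differences, and each was also higher in level in WT hypoxia, without passing the test there. Xdh encodes xanthine dehydrogenase, which turns purines into uric acid and in its oxidase form makes reactive oxygen (chromosome 17, 73883908 to 73950182). In P301S hypoxia Xdh lay between 8.25 and 15.8 CPM with a median of 10.5 CPM, against 3.06 to 5.7 CPM with a median of 4.77 CPM in WT normoxia. Every P301S hypoxia library was above every WT normoxia library, and the fold was 2.49 (log2 difference 1.31, SE 0.19, adjusted p = 0.00092). The single differences of Xdh were 0.10 for P301S normoxia and 0.92 for WT hypoxia, both against WT normoxia, and neither passed the test (adjusted p = 0.84 and 0.082).

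Hif3a encodes a HIF subunit of which some forms restrain the others (chromosome 7, 17031507 to 17062427). Its level was 12.3 to 29.6 CPM with a median of 18.3 CPM in P301S hypoxia and 3.75 to 10.8 CPM with a median of 4.55 CPM in WT normoxia. The groups did not overlap, although the P301S hypoxia libraries themselves spread widely. Hif3a rose 3.23-fold (log2 difference 1.69, SE 0.33, adjusted p = 0.0079), with single differences of 0.03 for P301S normoxia and 1.13 for WT hypoxia. Without the 6 libraries poor in choroid plexus markers it did not pass the test. Rtl3, a gene derived from a retrotransposon, held 3.57 to 4.64 CPM in P301S hypoxia and 1.25 to 3.06 CPM in WT normoxia with no overlap. Its log2 difference was 1.08 (SE 0.19, adjusted p = 0.003), beside 0.03 for P301S normoxia and 0.88 for WT hypoxia.

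Classical targets of HIF were called at a share near that over all tested genes. Of 24 measured HIF targets outside glycolysis, 1 rose and none fell (4.17%, beside 5.99% of all tested genes). Their median log2 difference was -0.06, beside -0.0044 over all tested genes. The one that rose was Tfrc, the transferrin receptor that brings iron into cells, at 106 to 118 CPM in P301S hypoxia and 72.4 to 103 CPM in WT normoxia (log2 difference 0.35, adjusted p = 0.0045). Vegfa, the vessel growth factor, had a median of 75.7 CPM in P301S hypoxia and 84.8 CPM in WT normoxia and did not pass the test (adjusted p = 0.1). Among 23 genes of glycolysis and lactate handling none rose and 1 fell (4.35%), with a median of -0.05. The one that fell was Slc16a1, a lactate transporter (log2 difference -0.24, adjusted p = 0.047).

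Clock genes moved in both directions. Nr1d1, the repressor REV-ERBalpha of the circadian loop (chromosome 11, 98767932 to 98775333), had the lowest p of any gene away from the prion locus that the naming rule took. Its libraries ran from 98.2 to 120 CPM with a median of 110 CPM in P301S hypoxia and from 61.3 to 77.7 CPM with a median of 71.4 CPM in WT normoxia. All 6 P301S hypoxia libraries lay above all 6 WT normoxia libraries, and the gap between the groups was wider than the range of WT normoxia. The log2 difference was 0.64 (SE 0.08, adjusted p = 4.8e-05), beside 0.23 for P301S normoxia and 0.63 for WT hypoxia. Their sum, 0.86, was larger than the combined difference, but the departure of -0.22 (95% interval -0.45 to 0.01) did not pass the test.

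Dbp, a transcription factor that clock proteins switch on each day, showed 35 to 41.5 CPM in P301S hypoxia and 19.4 to 32.3 CPM in WT normoxia (log2 difference 0.62, SE 0.11, adjusted p = 0.0043). Nfil3, a repressor that competes with DBP for the same sites, had 7.06 to 9.14 CPM in P301S hypoxia and 10.8 to 15.1 CPM in WT normoxia. It fell by 0.66 on the log2 scale (SE 0.11, adjusted p = 0.0022), with no overlap between the groups. In WT hypoxia the single differences were 0.82 for Dbp, which passed the test (adjusted p = 0.001), and -0.44 for Nfil3, which did not. Of the 20 clock genes measured, 3 rose and 2 fell, the remaining called genes being Nr1d2 (0.36) and Cry1 (-0.40). Per1, Per2 and Arntl, core members of the loop, had differences of -0.05, 0.12 and -0.09 and did not pass the test. The call of Nr1d2 was lost without WT normoxia replicate 2 or 5 or P301S hypoxia replicate 5 (adjusted p = 0.052, 0.056 and 0.058), in a fit of the 12 libraries alone and without the 6 libraries poor in choroid plexus markers.

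**Figure D1:**
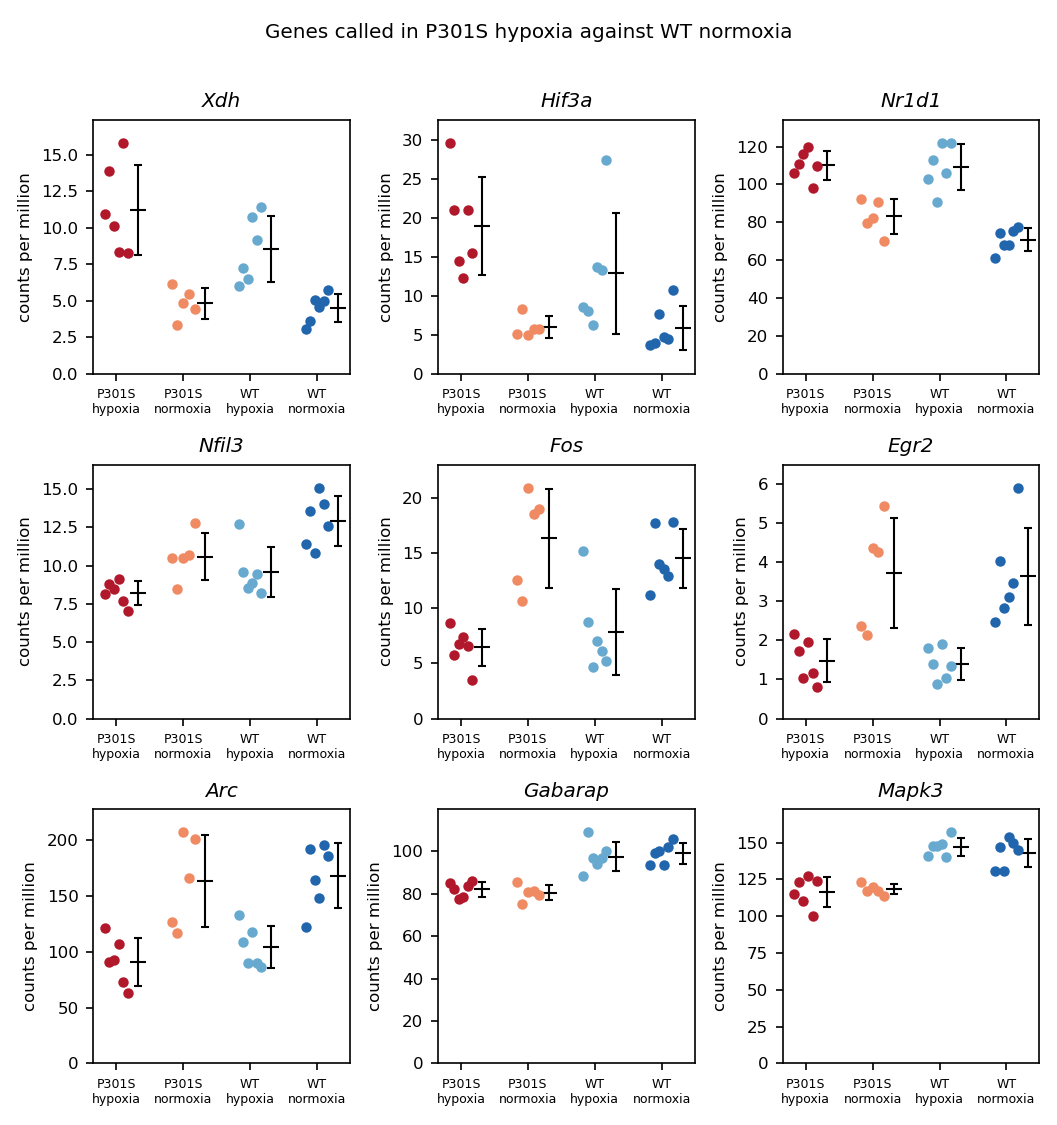
CPM of 9 genes in each library (points), with the mean and SD of each group in black, for P301S hypoxia, P301S normoxia, WT hypoxia and WT normoxia. For Xdh, Hif3a and Nr1d1 the P301S hypoxia points lie above the WT normoxia points, and for the other 6 genes below them.

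Immediate early genes, which neurons switch on within minutes of firing, were lower where called, with few exceptions. Of 26 measured, 10 fell and 2 rose, and the list's median log2 difference was -0.29. Fos, the AP-1 subunit used as a marker of active neurons (chromosome 12, 85473890 to 85477273), had 3.51 to 8.61 CPM with a median of 6.67 CPM in P301S hypoxia and 11.2 to 17.8 CPM with a median of 13.8 CPM in WT normoxia. No library of one group reached into the other. Fos fell by 1.17 on the log2 scale (SE 0.24, adjusted p = 0.01).

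Egr2, a zinc finger factor of the same early wave, held 0.812 to 2.17 CPM in P301S hypoxia and 2.46 to 5.91 CPM in WT normoxia, a log2 difference of -1.29 (SE 0.27, adjusted p = 0.01). Arc, whose product removes AMPA receptors from active synapses, ranged from 62.6 to 121 CPM with a median of 91.4 CPM in P301S hypoxia and from 122 to 196 CPM with a median of 175 CPM in WT normoxia. The highest P301S hypoxia library was just below the lowest WT normoxia library, and the log2 difference was -0.89 (SE 0.17, adjusted p = 0.0072). Nr4a1, a nuclear receptor induced by activity, fell by 0.55 and Junb, another AP-1 subunit, by 0.62 (adjusted p = 0.008 and 0.0048). Junb was the one of these 5 whose groups overlapped.

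In P301S mice kept in normoxia the log2 differences from WT normoxia were 0.17 for Fos, 0.05 for Egr2, -0.04 for Arc, 0.02 for Nr4a1 and -0.36 for Junb. In WT hypoxia they were -0.91, -1.39, -0.69, -0.42 and -0.44, and none of these 10 single differences passed the test. Over the whole list the median was -0.08 for P301S normoxia, -0.35 for WT hypoxia and -0.52 for the gene-wise sum. The 2 members that rose were Ptgs2, described below, and Bdnf, the growth factor that neurons release (0.23, adjusted p = 0.043). Without the 6 libraries poor in choroid plexus markers 9 members fell and 1 rose. With the length and GC trend removed 4 fell and Nr4a1 was not called, and 6 fell without WT normoxia replicate 2 or 5 or P301S hypoxia replicate 3.

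Of 31 cytosolic ribosomal protein genes 10 fell and none rose, with a median of -0.20, and of 30 nuclear genes of oxidative phosphorylation 8 fell and none rose, with a median of -0.13. Rpl18, of the large ribosomal subunit, had a median of 39.8 CPM in P301S hypoxia (34.1 to 51.2 CPM) and 54.6 CPM in WT normoxia (49.1 to 57.6 CPM). The ranges overlapped, and the log2 difference was -0.39 (SE 0.08, adjusted p = 0.01). Cox5b, a subunit of cytochrome c oxidase, lay between 78.7 and 91.8 CPM in P301S hypoxia and between 93.3 and 120 CPM in WT normoxia, with no overlap (log2 difference -0.31, SE 0.06, adjusted p = 0.0085).

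Uqcrh and Uqcrc1, subunits of complex III, fell by 0.23 and 0.54 (adjusted p = 0.011 and 0.013). For P301S normoxia the medians of these lists were -0.25 and -0.23, with 19 and 21 genes called lower. For WT hypoxia they were 0.02 and 0.03 with none called, and for the sum -0.21 and -0.22. Among mitochondrially encoded genes 3 of 11 rose and none fell. Their differences were positive in 7 and negative in 4, with a median of 0.16. One that rose was mt-Nd1, a subunit of complex I, with 2619 to 3306 CPM in P301S hypoxia and 2287 to 2535 CPM in WT normoxia (log2 difference 0.29, adjusted p = 0.0061). Of the 11, 1 was called with the length and GC trend removed, without the 6 libraries poor in choroid plexus markers, or without any one of WT normoxia replicates 2, 4, 5 and 6 or P301S hypoxia replicates 2, 4 and 5. Without those 6 libraries 0 ribosomal and 1 oxidative phosphorylation gene fell, and with the length and GC trend removed 1 and 2 fell. Ribosomal genes called lower numbered 1 to 3 without any one of WT normoxia replicates 2, 3, 5 and 6 or P301S hypoxia replicates 2 to 5, and 16, 18 and 23 without WT normoxia replicate 1, P301S normoxia replicate 1 or P301S hypoxia replicate 6. For oxidative phosphorylation the same 8 omissions left 3 to 5 and the omission of P301S hypoxia replicate 6 gave 14. Ribosomal protein genes have many near-identical copies, so their counts are uncertain.

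Of 25 potassium channel genes 12 rose and none fell, with a median log2 difference of 0.22. Of 23 calcium, sodium and HCN channel genes, calcium release channels included, 8 rose and none fell, with a median of 0.18. Cacna2d3, an auxiliary calcium channel subunit that brings the channel to the membrane (chromosome 14, 28904943 to 29721864), ran from 151 to 178 CPM with a median of 168 CPM in P301S hypoxia. In WT normoxia it ran from 125 to 141 CPM with a median of 134 CPM, below every P301S hypoxia library. The log2 difference was 0.32 (SE 0.05, adjusted p = 0.0012), beside 0.27 for P301S normoxia and 0.15 for WT hypoxia.

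Kcnj6, the GIRK2 channel that G proteins open, had 164 to 242 CPM in P301S hypoxia and 134 to 165 CPM in WT normoxia, and its groups overlapped at their edges (0.43, SE 0.09, adjusted p = 0.011). Kcnd2, a channel of the A-type current, and Kcnq3, of the M-current, rose by 0.34 and 0.36 (adjusted p = 0.013 and 0.015). Scn3a, a sodium channel gene, rose by 0.30 (adjusted p = 0.0075). In the receptor lists 3 of 28 glutamate receptor and scaffold genes and 4 of 21 GABA genes rose and none fell. Grin2a, an NMDA receptor subunit, had a median of 479 CPM in P301S hypoxia and 374 CPM in WT normoxia with no overlap (0.36, SE 0.07, adjusted p = 0.0044). With the length and GC trend removed 1 glutamate gene, not Grin2a, and 0 GABA genes were called, and without the 6 libraries poor in choroid plexus markers 1 of each. Leaving out any one of WT normoxia replicates 5 and 6 or P301S hypoxia replicates 2, 3 and 4 left 1 glutamate gene, and leaving out any one of WT normoxia replicates 2, 3, 5 and 6 or P301S hypoxia replicates 1 to 5 left 1 or 2 GABA genes.

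Most of these channel and receptor genes are long, and the difference followed gene length over all genes. Among the 1779 genes of shortest span, the median log2 difference was -0.127, with 14 genes called higher and 113 lower. Among the 1779 of longest span it was 0.10, with 236 higher and 2 lower. P301S normoxia gave -0.174 and 0.114 in the same sets, and WT hypoxia 0.0133 and 0.0281. With the length and GC trend removed 2 potassium channel and 0 calcium, sodium and HCN channel genes were called, and the medians were 0.13 and 0.10. Without the 6 libraries poor in choroid plexus markers the counts were 3 and 6. Leaving out any one of WT normoxia replicates 2, 3, 5 and 6 or P301S hypoxia replicates 2, 3 and 4 brought them to between 3 and 7 and to between 3 and 5, and P301S hypoxia replicate 5 brought the potassium channels to 5.

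**Figure D2:**
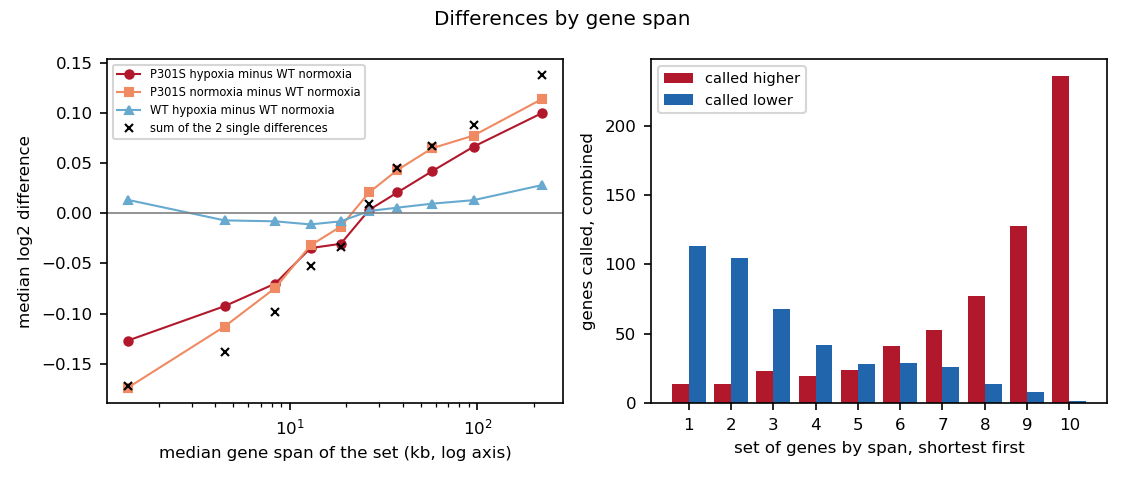
Left, median log2 difference in each of 10 equal sets of genes ordered by span against the median span of the set (kb, log axis), for the combined difference, the single differences and their sum. Right, number of genes called higher and lower in P301S hypoxia in each set, which runs from 14 higher and 113 lower in the shortest to 236 higher and 2 lower in the longest.

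Some genes of tau biology were called, in both directions. Of 29 measured tau kinases, phosphatases and regulators 3 rose and 2 fell, with a median of 0.02. Mapk3, the kinase ERK1 (chromosome 7, 126759601 to 126765819), had 99.8 to 127 CPM with a median of 119 CPM in P301S hypoxia and 131 to 154 CPM with a median of 146 CPM in WT normoxia. It fell by 0.30 (SE 0.05, adjusted p = 0.0043) with no overlap, and the single differences were -0.27 for P301S normoxia and 0.04 for WT hypoxia. With the length and GC trend removed 0 of the 29 were called. Of 24 tau and microtubule genes 2 rose, or 8.33%, near the share over all tested genes. Among the 2, Map7, which recruits kinesin to microtubules, stood at 140 to 166 CPM in P301S hypoxia and 100 to 130 CPM in WT normoxia (0.38, SE 0.06, adjusted p = 0.0024).

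Of 27 lysosome and autophagy genes 3 fell and none rose, with a median of -0.09. Gabarap, which attaches to the autophagosome membrane, had 77.4 to 85.9 CPM in P301S hypoxia and 93.6 to 106 CPM in WT normoxia. Its groups were apart (log2 difference -0.27, SE 0.05, adjusted p = 0.0033). Hexa, a lysosomal hexosaminidase, fell by 0.25 (adjusted p = 0.0055). With the length and GC trend removed Gabarap was the 1 of the 27 called. Among 24 antioxidant genes 3 fell and none rose, among them Prdx5, a peroxiredoxin, and Gsta4, which clears products of lipid oxidation (-0.26 and -0.30, adjusted p = 0.017 and 0.021). Both of these calls were lost without the 6 libraries poor in choroid plexus markers.

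Of 16 genes that glucocorticoids induce, 2 rose and none fell (12.5%, beside 5.99% of all tested genes). Differences were positive in 9 of the 16 and negative in 7. Zbtb16, a zinc finger repressor, ran from 125 to 157 CPM with a median of 137 CPM in P301S hypoxia and from 87.1 to 119 CPM with a median of 104 CPM in WT normoxia. The groups did not overlap, and the log2 difference was 0.41 (SE 0.08, adjusted p = 0.0077), beside 0.06 and 0.01 for the single differences. Fkbp5, a co-chaperone that tunes the glucocorticoid receptor, rose by 0.38 (adjusted p = 0.013), with 70.1 to 88.4 CPM in P301S hypoxia and 46.2 to 66.8 CPM in WT normoxia. It did not pass the test without the 6 libraries poor in choroid plexus markers. Sgk1, a kinase induced by the same hormones, had a median of 74.4 CPM in P301S hypoxia and 61.9 CPM in WT normoxia and did not pass (0.36, adjusted p = 0.06).

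Ppm1l, Rasal2 and Sidt1 were among the higher genes with the lowest p, and Pea15a and Tspan15 among the lower ones. Ppm1l, a phosphatase of stress kinases, had 176 to 206 CPM in P301S hypoxia and 130 to 156 CPM in WT normoxia (0.41, SE 0.06, adjusted p = 0.00046). Rasal2, which shuts off RAS, and Sidt1, a transmembrane protein linked to RNA uptake, rose by 0.37 and 0.36 (adjusted p = 0.0005 and 0.00073). Pea15a, an adaptor abundant in astrocytes that holds ERK in the cytoplasm, fell by 0.25 (adjusted p = 0.0012), with 396 to 461 CPM in P301S hypoxia and 486 to 552 CPM in WT normoxia. Tspan15, a partner of the protease ADAM10, fell by 0.42 (adjusted p = 0.0044). In each of these 5 genes the groups were apart.

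Further genes were taken for the size of their differences. Crispld1 (1.20), Slc23a4 (0.97), Col11a1 (0.96), Galnt15 (1.11) and Fermt1 (1.03) were called higher, and Tgfbi (-0.77), Gpr139 (-0.86), Meg3 (-0.84), Rps15a-ps7 (-1.03) and Cldn34c1 (-4.52) lower. Crispld1 shares 63.7% of its span with another gene. Cldn34c1 was uneven among the WT normoxia libraries, at 0 to 5.44 CPM, against 0.04 to 0.159 CPM in P301S hypoxia, so the groups overlapped. Of the 81 called genes that the naming rule took, 46 passed the test without each of the 23 libraries in turn, Crispld1 and Slc23a4 among them, and 35 lost it without at least 1. Among the 35, the highest adjusted p was 0.12 for Galnt15 and Fermt1, 0.11 for Tgfbi and Meg3, 0.096 for Rps15a-ps7, 0.066 for Gpr139, 0.062 for Col11a1 and 0.06 for Cldn34c1. Without the 6 libraries poor in choroid plexus markers Crispld1 was not called either.

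Of 14 measured dentate granule markers 2 rose and 1 fell, with Pdzd2, a PDZ protein, at 106 to 138 CPM in P301S hypoxia and 68.8 to 98.4 CPM in WT normoxia (0.49, SE 0.08, adjusted p = 0.0025). Il1rap, a subunit of the interleukin-1 receptor, rose by 0.43 (adjusted p = 0.003). Marcksl1 was the 1 that fell (-0.30, adjusted p = 0.023), and 5 of the 14 had negative differences. No marker of CA1, of CA2 and CA3, of interneurons, of astrocytes or of mature oligodendrocytes was called, with medians of 0.09, -0.04, 0.05, -0.03 and -0.12. In whole tissue, fewer cells of a type and less RNA in each cell cannot be told apart.

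Fcrls and Olfml3, 2 of 11 homeostatic markers, and Cd9, 1 of 13 markers of the disease-associated state, were called lower (-1.06, -0.78 and -0.41). The list medians were -0.04 and -0.15, with 3 of 11 and 4 of 13 differences positive. With the length and GC trend removed the homeostatic median was 0.01. All 3 calls were lost with the choroid plexus score as covariate and in a fit of the 12 libraries alone. Fcrls ran from 4.52 to 12.9 CPM in P301S hypoxia and from 6.44 to 21.5 CPM in WT normoxia, with wide overlap, and its adjusted p of 0.049 became 0.1 at the highest when single libraries were left out. For Olfml3 that highest adjusted p was 0.1 and for Cd9 0.09. Trem2, the receptor that carries microglia into the disease-associated state, had a difference of -0.31 (adjusted p = 0.25). P2ry12, P2ry13, Gpr34 and the astrocyte marker Gfap had 0 counts in all 12 libraries, as had Prnp, which is abundant in brain. Of the span of Prnp, 99.9% is shared with other genes, chiefly Prn. The cause of these zeros was not tested, and they do not show that the transcripts were absent. All 16 choroid plexus markers, 13 ependymal markers and 5 globin and erythroid genes had negative differences, with medians of -1.10, -0.74 and -0.69, and none was called. Their part in the other results was not tested beyond the counts given without the 6 libraries and, for the choroid plexus, a fit with its score as covariate, which called 583 genes in the combined comparison.

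**Figure D3:**
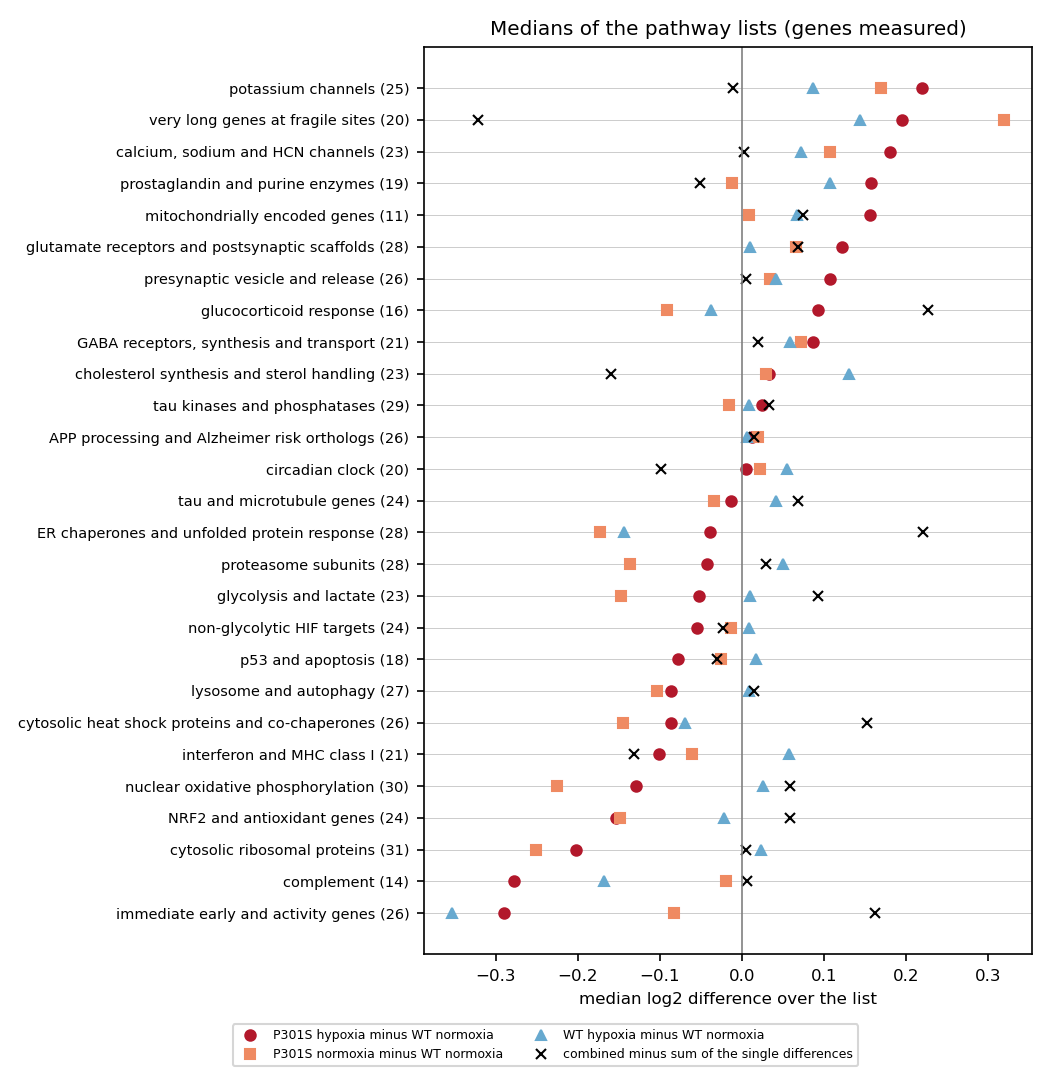
Median log2 difference of each pathway list (rows, with the number of genes measured) for P301S hypoxia, P301S normoxia and WT hypoxia, each against WT normoxia, and for the combined difference minus the sum. Immediate early genes lie lowest (-0.29) and potassium channels highest (0.22) in the combined difference. Median departures from the sum include 0.22 for the endoplasmic reticulum list, 0.23 for glucocorticoid response and -0.32 for very long genes at fragile sites.

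The combined difference was next set against the sum of the single differences on the log2 scale. The departure from that sum is also the hypoxia effect in P301S mice minus that in WT mice. As single comparisons against WT normoxia, P301S normoxia gave 1130 called genes (6.35%) and WT hypoxia 13 (0.0731%). Both share the WT normoxia libraries with the combined comparison. The departure was called for 7 genes, 0.0394% of those tested, 5 above and 2 below the sum, while 1678 genes had an unadjusted p below 0.05. For the 630 genes called higher in the combined comparison the median difference was 0.27 and the median sum 0.28, and for the 435 called lower these were -0.30 and -0.33. These genes were picked by the combined comparison, which shares WT normoxia with the sum. Their closeness is therefore partly built in and is no test of whether the single differences add. The median half-width of the 95% interval of the departure over the called genes was 0.21. No departure was called with edgeR's older (legacy) quasi-likelihood method, without the 6 libraries poor in choroid plexus markers, with the trend removed or with genes under a mean of 1 CPM left out, and DESeq2 called 48. The fit without the 6 libraries also lacked WT hypoxia replicates 1, 4 and 5, so it had fewer libraries for the departure. Each of the 7 calls was lost in 16 to 20 of the 23 fits that left out 1 library, with no change of sign.

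Genes that fold proteins in the endoplasmic reticulum (ER) were close to the WT normoxia level in P301S hypoxia, and had lower medians in the 2 groups with a single exposure. None of 28 ER chaperone and unfolded protein response genes was called in the combined comparison. Their median difference was -0.04, beside -0.17 for P301S normoxia, in which 12 fell, and -0.14 for WT hypoxia, in which none was called. The median departure from the sum was 0.22, positive in 24 of the 28 and in 8744 of all 17788 genes. The ER stress element, to which ATF6 binds with NF-Y, is known from promoters of this family. Searched on both strands as CCAAT, 9 bases of any kind and CCACG, it was found in 9 of the 25 ER list genes with a RefSeq promoter. It was found in 39 of all 32851 promoters (0.119%), a count of promoters and not of genes. A match describes the letters and is no shown binding site. The promoters of Hspa5 and Calr, whose departures were called, and of Pdia6, a disulfide isomerase with a departure of 0.56 chosen after its values were seen, are shown from RefSeq (GRCm38.p6), 250 bases before to 50 after the start and 5′ to 3′ of the gene, with the CCAAT and CCACG parts of the element, or their reverse complements, in capitals.
Hspa5, chr2:34771840-34772139, + strand: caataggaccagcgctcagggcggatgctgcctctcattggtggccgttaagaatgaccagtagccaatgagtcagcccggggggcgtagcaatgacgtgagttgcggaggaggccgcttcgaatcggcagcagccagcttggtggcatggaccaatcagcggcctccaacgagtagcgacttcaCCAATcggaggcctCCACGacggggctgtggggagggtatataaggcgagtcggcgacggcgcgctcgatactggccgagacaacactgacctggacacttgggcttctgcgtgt
Calr, chr8:84846882-84847181, - strand: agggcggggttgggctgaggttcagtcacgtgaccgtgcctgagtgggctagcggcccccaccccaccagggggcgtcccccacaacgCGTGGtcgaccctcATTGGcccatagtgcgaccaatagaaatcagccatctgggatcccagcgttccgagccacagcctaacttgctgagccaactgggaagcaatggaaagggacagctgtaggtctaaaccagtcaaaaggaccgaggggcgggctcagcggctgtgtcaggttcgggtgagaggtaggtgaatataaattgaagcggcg
Pdia6, chr12:17266339-17266638, + strand: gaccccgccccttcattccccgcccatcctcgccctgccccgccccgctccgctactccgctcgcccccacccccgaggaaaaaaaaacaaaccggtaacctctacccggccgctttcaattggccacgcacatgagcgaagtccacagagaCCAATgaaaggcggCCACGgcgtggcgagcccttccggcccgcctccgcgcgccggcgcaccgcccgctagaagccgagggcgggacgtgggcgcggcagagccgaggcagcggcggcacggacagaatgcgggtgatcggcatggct

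Hspa5, the chaperone BiP (chromosome 2, 34771970 to 34777547), ran from 230 to 372 CPM with a median of 282 CPM in P301S hypoxia. The other groups had medians of 206 CPM in P301S normoxia (186 to 259 CPM), 226 CPM in WT hypoxia (200 to 237 CPM) and 298 CPM in WT normoxia (241 to 348 CPM). P301S hypoxia and WT normoxia covered much the same range, and every WT hypoxia library was below every WT normoxia library. The combined log2 difference was -0.01 (SE 0.10), the single ones -0.44 and -0.37, and their sum -0.82. The departure was 0.81 (95% interval 0.50 to 1.12, adjusted p = 0.043).

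Calr, the calcium-binding chaperone calreticulin, showed the same order, with medians of 362 CPM in P301S hypoxia, 304 CPM in P301S normoxia, 323 CPM in WT hypoxia and 393 CPM in WT normoxia. Its combined difference was -0.10 against a sum of -0.63, a departure of 0.53 (0.34 to 0.72, adjusted p = 0.041). Sdf2l1, a cofactor of BiP, had a median of 8.41 CPM in P301S hypoxia, 6.32 CPM in P301S normoxia, 7.54 CPM in WT hypoxia and 10.1 CPM in WT normoxia. Its departure was 1.16 (0.70 to 1.63) and did not pass the test (adjusted p = 0.062). Creld2, Manf, Xbp1 and Pdia4 had departures of 0.64, 0.69, 0.52 and 0.49 that were not called either. Cytosolic heat shock and co-chaperone genes had a median departure of 0.15, positive in 24 of 26.

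**Figure D4:**
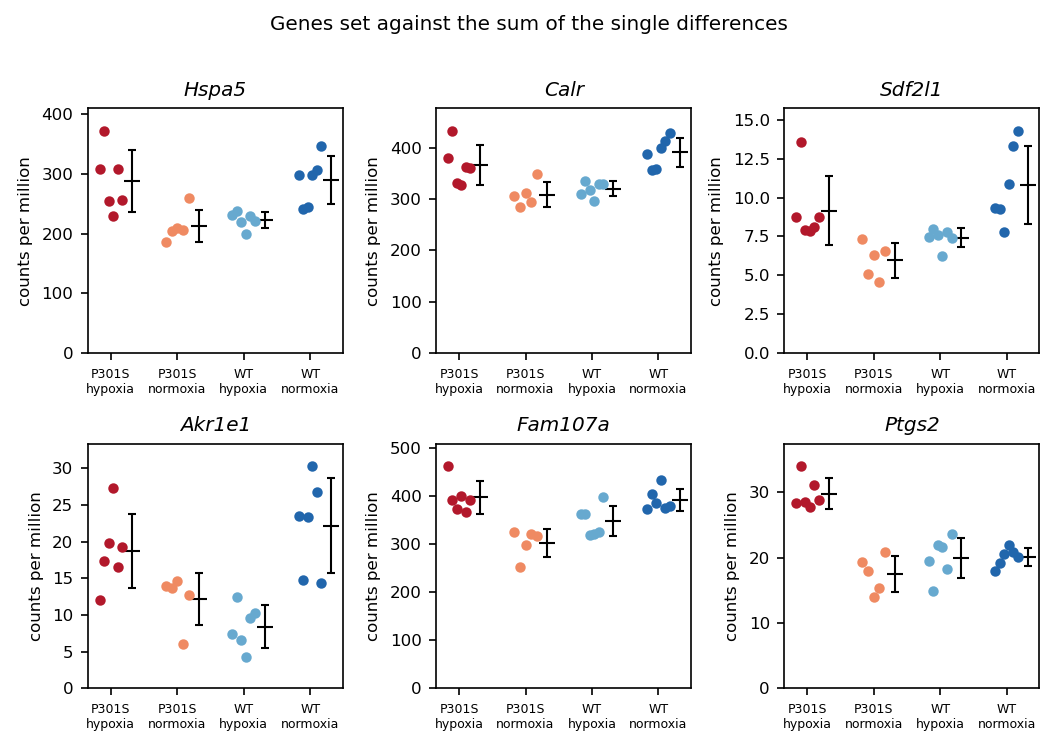
CPM of 6 genes in each library (points), with the mean and SD of each group in black, for P301S hypoxia, P301S normoxia, WT hypoxia and WT normoxia. Hspa5, Calr, Akr1e1 and Fam107a are near the WT normoxia level in P301S hypoxia and lower in the 2 groups with a single exposure. The Sdf2l1 median in P301S hypoxia (8.41 CPM) lies between those of WT hypoxia (7.54 CPM) and WT normoxia (10.1 CPM). Ptgs2 is high in P301S hypoxia alone.

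Akr1e1, an aldo-keto reductase that handles a sugar derived from glycogen (chromosome 13, 4590750 to 4609174), had the largest departure above the sum. It ran from 12 to 27.3 CPM with a median of 18.3 CPM in P301S hypoxia and from 14.3 to 30.3 CPM with a median of 23.4 CPM in WT normoxia. Between these lay no difference that passed the test (-0.25, adjusted p = 0.55), while P301S normoxia had 6.03 to 14.6 CPM and WT hypoxia 4.26 to 12.5 CPM. The single differences of -0.87 and -1.40 both passed (adjusted p = 0.044 and 0.043), and the departure was 2.02 (1.28 to 2.77, adjusted p = 0.041).

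Fam107a, a stress-responsive protein that binds actin and is abundant in astrocytes (chromosome 14, 8296274 to 8318023), had its lowest median in P301S normoxia. Medians were 391 CPM in P301S hypoxia, 316 CPM in P301S normoxia, 343 CPM in WT hypoxia and 382 CPM in WT normoxia, and the departure was 0.56 (0.36 to 0.76, adjusted p = 0.041).

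Ptgs2 was the one gene called both in the combined comparison and for its departure. It encodes COX-2, the inducible enzyme of prostaglandin synthesis that excitatory neurons also express (chromosome 1, 150100031 to 150108227). It ran from 27.8 to 34 CPM with a median of 28.6 CPM in P301S hypoxia, from 14 to 20.8 CPM in P301S normoxia, from 14.9 to 23.6 CPM in WT hypoxia and from 17.9 to 21.9 CPM with a median of 20.3 CPM in WT normoxia. No library of the other 3 groups reached the lowest P301S hypoxia library. Ptgs2 rose by 0.57 on the log2 scale (SE 0.10, adjusted p = 0.0025), against single differences of -0.20 and -0.01 and a sum of -0.21. The departure of 0.78 (0.49 to 1.07) had an adjusted p of 0.041. Of 19 genes of prostaglandin and purine metabolism 4 rose, the others being Xdh, Ptgs1, the constitutive enzyme (0.30, adjusted p = 0.038), and Ptger4, a prostaglandin E2 receptor (0.26, adjusted p = 0.032). Ptgs1 and Ptger4 were not called without the 6 libraries poor in choroid plexus markers.

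H2-Q2, a class I histocompatibility gene, and Mybpc2, a myosin-binding protein of muscle, were the 2 genes below the sum, and both were barely expressed. H2-Q2 lay between 0.0411 and 0.41 CPM in P301S hypoxia, between 0.3 and 0.946 CPM in P301S normoxia, between 0.04 and 0.588 CPM in WT hypoxia and between 0 and 0.124 CPM in WT normoxia. Its departure was -4.42 (-6.18 to -2.65), a size that rests on WT normoxia libraries at or near 0. Mybpc2 had medians of 0.242 CPM in P301S hypoxia, 0.496 CPM in P301S normoxia, 0.436 CPM in WT hypoxia and 0.166 CPM in WT normoxia and a departure of -2.30 (-3.17 to -1.44). Both had an adjusted p of 0.041.

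Departures of other lists held no called gene apart from Ptgs2. Very long genes at fragile sites had a median difference of 0.20 in P301S hypoxia, 0.32 in P301S normoxia and 0.14 in WT hypoxia, and their departure was negative in all 20 measured, with a median of -0.32. With the length and GC trend removed their combined median was 0.03, with 1 called. Magi2, a synaptic scaffold, and Nrg3, a ligand of ERBB4, were 2 of the 5 that rose in the combined comparison (0.26 and 0.34, adjusted p = 0.0043 and 0.0082). Cholesterol synthesis and sterol handling genes had a median of 0.03 and a median departure of -0.16, positive in 4 of 23. Glucocorticoid response genes had a median of 0.09 and a median departure of 0.23, positive in 13 of 16. For immediate early genes the departure was 0.16 in the median and positive in 16 of 26.

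**Figure D5:**
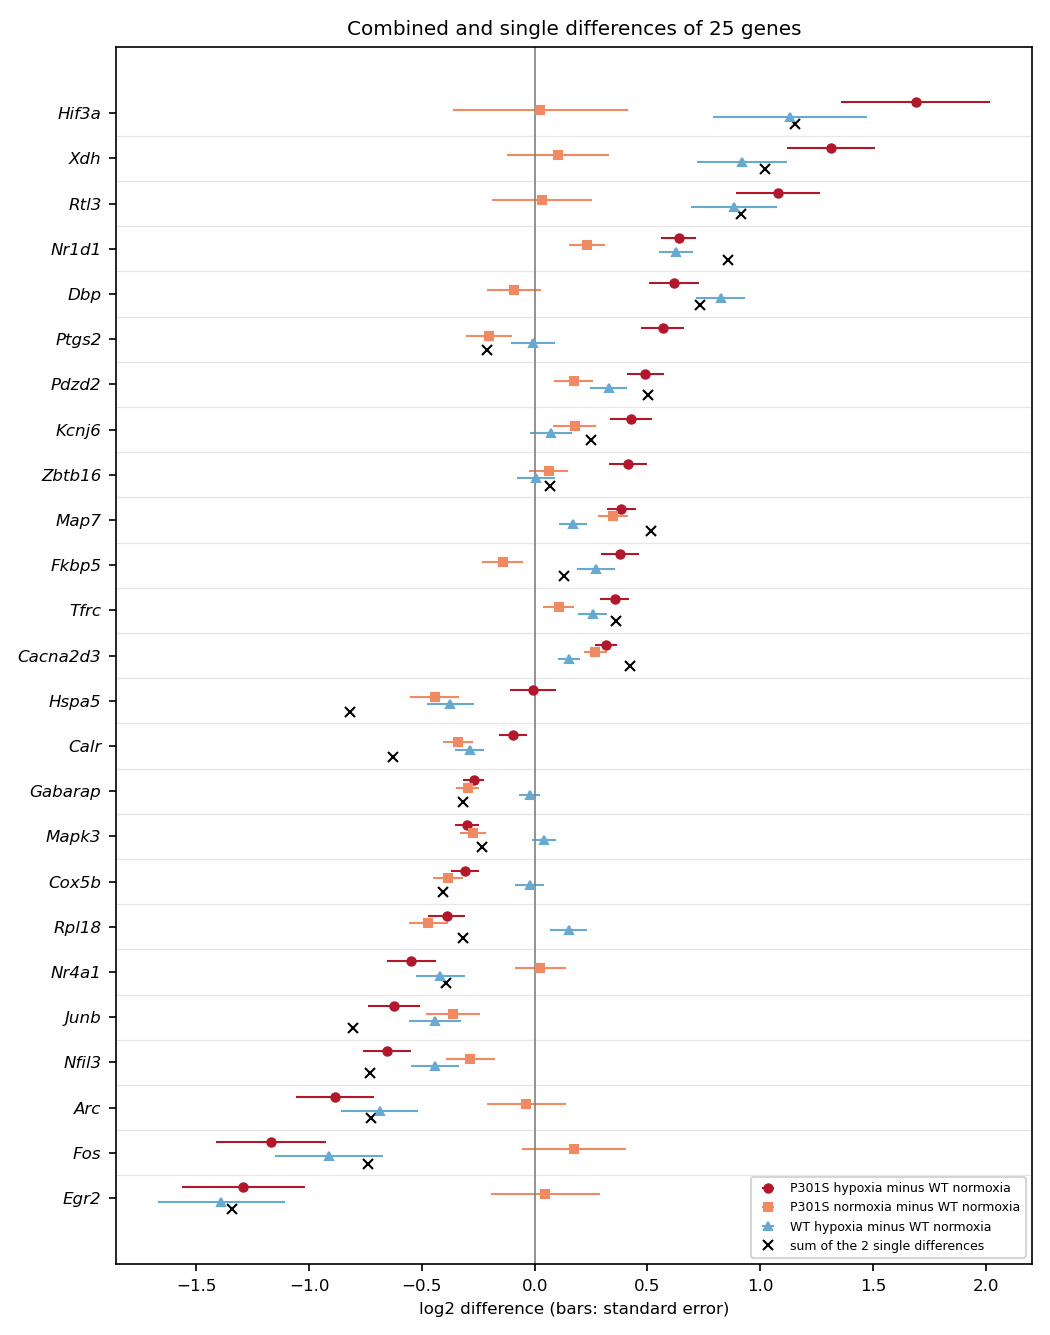
Log2 differences with standard errors of 25 genes for P301S hypoxia, P301S normoxia and WT hypoxia, each against WT normoxia, with crosses at the sum of the single differences. Hspa5, Calr and Ptgs2 lie to the right of their crosses (departures 0.81, 0.53 and 0.78), while Nr1d1 and Rpl18 lie near theirs (-0.22 and -0.07).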

How the data were processed

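Whole hippocampus RNA from 23 libraries was sequenced after poly(A) selection with a stranded kit. Per the submitters' processing notes, reads were aligned with HISAT2 to mm10. Per the file headers, the authors counted read pairs from duplicate-removed alignments over whole genes, introns included, with featureCounts 1.6.2, Ensembl 90 and no strand setting, so reads of overlapping genes cannot be told apart. Of the tested genes, 48.1% overlapped another gene. The deposited values are raw counts.

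Counts were tested with edgeR 4.0.16 in R 4.3.3 (filterByExpr with a minimum count of 10, TMM scaling, robust quasi-likelihood fit of 4 group means, two-sided, Benjamini-Hochberg adjustment over 17788 genes) and checked on simulated data. The departure is the contrast of the combined difference minus the sum of the single ones. Gene spans and overlaps came from the annotation in the files, and promoters from RefSeq. Folds against a group at 0 counts used a floor of 3 counts over the group, which covers counting error only. Named genes were up to 10 higher and 10 lower by size, 6 and 6 by p, 6 by departure and up to 4 of each list by p, plus Mapt, Prnp and Prn, with a mean of at least 1 CPM for the first 3 kinds. H2-Q2, Mybpc2, Pdia4, Pdia6, Xbp1, Manf, Per1, Per2, Arntl, Cry1, Bdnf, Slc16a1, Magi2 and Nrg3 fall outside that rule and were named after their values were seen. The groups compared, the gene lists and the markers were chosen with earlier results of these data known. Alternatives were another scaling (median of ratios), other filters, removal of trends on gene span and GC within each library, a choroid plexus score as covariate, the 12 libraries alone, DESeq2 1.42.0 and omission of each library. edgeR's older method and the omission of the 6 libraries poor in choroid plexus markers were chosen after seeing the data.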

Additional observations from a re-analysis of the deposited data

Results flagged for a closer look

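Of 77 groups of libraries tested for a value set far apart from the rest, 6 held one, where chance alone gives about 1 in 20. In P301S hypoxia the highest values were 462 CPM for Fam107a in replicate 1, 8.73 CPM for Galnt15 and 13.4 CPM for Olfml3 in replicate 5, and 13.6 CPM for Sdf2l1 in replicate 2. The lowest Sidt1 value of P301S hypoxia, 118 CPM in replicate 1, and the highest of WT normoxia, 106 CPM in replicate 3, also stood apart.

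The hypoxia effect in P301S mice differed from that in WT mice, by edgeR's quasi-likelihood test of the difference itself, for 7 genes. On the log2 scale the difference was 2.02 for Akr1e1, 0.534 for Calr, 0.562 for Fam107a, 0.81 for Hspa5, 0.78 for Ptgs2, -4.42 for H2-Q2 and -2.30 for Mybpc2.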

How the results depend on the processing

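The combined comparison called 542 genes with no filter on low counts, 263 with the length and GC trend removed, 583 with the choroid plexus score as covariate, 343 without the 6 libraries poor in choroid plexus markers and 1761 with DESeq2, against 1065 as reported. For the departure the counts were 4, 0, 11, 0 and 48 under the same settings, 0 when genes averaging under 1 CPM were left out, and 0 with edgeR's older method. P301S normoxia gave 682 with no filter, 433 with the trend removed and 389 without the 6 libraries. WT hypoxia gave 4, 20 and 0 under these settings and 151 with DESeq2. Leaving out each library in turn gave 396 to 1475 genes for the combined comparison, 0 to 13 for the departure, 365 to 2069 for P301S normoxia and 2 to 29 for WT hypoxia. The cause was not tested. Of the 1065 genes, 220 were also called with the trend removed, 274 without the 6 libraries and 1044 with DESeq2. No reported value changed sign where it was called. No paired analysis was possible because the labels give no replicate numbers shared between groups. The median half-width of the unadjusted 95% interval of the departure was 0.209 over the called genes, and departures as large as 1.16 (Sdf2l1) did not pass the adjusted test.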

Other observations

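Other lists are given with their share of called genes, beside 5.99% over all tested genes. Among 26 genes of APP processing and Alzheimer risk 2 rose and none fell (7.69%), with a median log2 difference of 0.01. None of 14 complement genes and none of 18 genes of p53 and apoptosis was called by edgeR's quasi-likelihood test, with medians of -0.28 and -0.08. Of 28 proteasome subunits 1 rose and 1 fell (7.14%), and of 21 interferon and MHC class I genes 1 fell (4.76%). Of 10 markers of oligodendrocyte precursors 2 rose (20%). Endothelial, pericyte and meningeal fibroblast markers had medians of 0.10, 0.11 and -0.19 with none called.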
